A study of Rattus norvegicus with 67 samples.

Results

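The regions described here are the terminal 2 Mb of the 20 rat autosomes in sperm, as read by histone H3 ChIP-Seq (chromatin immunoprecipitation followed by sequencing). A window of 1000 bp belonged to the first end of a chromosome when it started within the first 2 Mb of the assembled sequence, and to the last end when it stopped within the final 2 Mb. The rule used position only and gave 40 ends of 2000 windows each, 80000 windows in all, of the 2782040 windows in the deposited table. The interior of a chromosome was everything between its ends, 2538741 windows over the 20 autosomes.

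The samples were sperm of F3 generation males of outbred Sprague Dawley rats at 12 months of age. Their F0 great-grandmothers were given 25 mg/kg atrazine, a herbicide, or the vehicle dimethyl sulfoxide (DMSO) on days 8 to 14 of gestation, and the F3 males of either lineage had no direct exposure. The 50 atrazine lineage males with counts were 19 without disease, 5 lean, 3 with kidney disease, 4 with testis disease, 5 with late puberty and 14 with multiple disease. The 16 control lineage males with counts were 9 without disease, 3 obese, 2 with multiple disease, 1 with kidney disease and 1 with late puberty, and control lineage male M1, the remaining animal of the 67 in the sample list, had no counts. The reference of all 5 disease groups was a set of 17 undiseased atrazine lineage males, because M59 and M68 were in no disease table. A treatment tag read Atrazine for every control lineage male and DMSO for 13 atrazine lineage males, M57 to M69, and the title and the lineage tag were followed in its place. The study names a histone H3 antibody for this measurement, although its protocol lists a pan histone H3 antibody or one against a trimethylated H3, and the counts do not tell them apart.

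Most histones are removed from the chromatin of a developing spermatid and replaced by protamines, small basic proteins that pack the sperm head, and the histones that stay behind mark sites of histone retention. The end of a chromosome carries the telomere repeat, and the subtelomeric DNA next to it is rich in segmental duplications and repeats that are shared between chromosomes. Several rat autosomes are acrocentric or telocentric, so that one of their ends lies near the centromere and its satellite repeats. Short reads from such DNA may map to several places or to none, and an assembly may hold fewer copies of a repeat than the genome does. No library without immunoprecipitation was analysed here, so a high read count from DNA present in more copies than assembled and a high count from retained histones cannot be told apart.

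Levels are given in RPM, the reads of a window over the total count of the animal, scaled to 1000000 reads. Total counts ran from 19909382 to 239635003 with a median of 57082912 over the 66 animals. The libraries of M28 and M48 stood apart from the other 64. After thinning to the same depth, the 5% of windows with the most reads held 37.2% of the reads of multiple disease male M48 and 18.4% of the reads of lean male M28.

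The ends held more windows without reads and more windows with many reads than the interior. No read in any animal was found in 7.62% of the end windows, against 3.88% of the interior windows. The share was 9.85% at the first ends and 5.39% at the last ends. At the other extreme, 658 end windows had a mean above 1.91 RPM, 5 times the median of 0.382 RPM over all windows with a read. These were 0.823% of the end windows and 0.170% of the interior windows. The first ends again held most of them, with 1.47% of their windows against 0.178% of the windows of the last ends. They lay at 22 of the ends, and 359 of them were at the first ends of chromosomes 2, 7 and 12. The highest share was at the first end of chromosome 7, 9.15% of its windows, followed by that of chromosome 19 with 5.90% and that of chromosome 2 with 4.75%. At 18 ends no window passed this level.

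Windows with many reads lay in runs. The run with the highest level among the longest lay at the last end of chromosome 17, chr17:89427001-89464000 of Rnor 6.0, where 36 windows averaged 8.57 ± 1.93 RPM (SD, n = 66 animals), 22.4 times the median window. The lowest animal had 3.27 RPM there and the highest 11.9 RPM, so that every library held far more reads in this run than in a usual window. A run of equal window number at the first end of chromosome 7, chr7:448001-489000, averaged 3.06 ± 0.376 RPM. Another run, of 30 windows, lay at the first end of chromosome 19, chr19:294001-325000, also at 3.06 RPM with an SD of 0.470. Windows without reads and windows above 5 times the median were left out of the levels below, and 73250 end windows were kept (91.6%).

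The first question was whether the ends differed in level from the interior of their own chromosome. For each animal the mean RPM over the kept windows of an end was divided by the mean over the interior, and log2 of this ratio was tested over the 66 animals with a two-sided sign-flip permutation test with 100000 resamples, Benjamini-Hochberg adjusted over the 40 ends. The ends did not move in a common direction. At an adjusted p below 0.05 the ratio was above 0 at 17 ends and below 0 at 14, and it did not pass at 9. Of 1261 interior blocks of 2 Mb, put to the same test and adjusted over the blocks, 67.2% passed (27.3% of the blocks above and 40% below), so a difference from the interior was common along the whole chromosome. With the windows above 5 times the median kept as well, 18 ends were above and 13 below, beside 22% of blocks above and 52.2% below. Only when windows without reads were also counted as 0 did the balance turn. It then was 12 ends above and 20 below, beside 27% of blocks above and 46.2% below. Ends of 1 Mb gave 19 above and 10 below, beside 28.2% and 39.1% of 2522 blocks of 1 Mb. Leaving out M28 and M48 gave 23 above and 14 below, beside 39% and 44.2% of the blocks. The median end had a log2 ratio of 0.013. Of the 20 first ends, 11 were above and 6 below their interior, and of the 20 last ends, 6 were above and 8 below. First ends ran from -0.67 to 0.88 and last ends only from -0.14 to 0.22, so the extremes in both directions were at first ends.

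**Figure D1:**
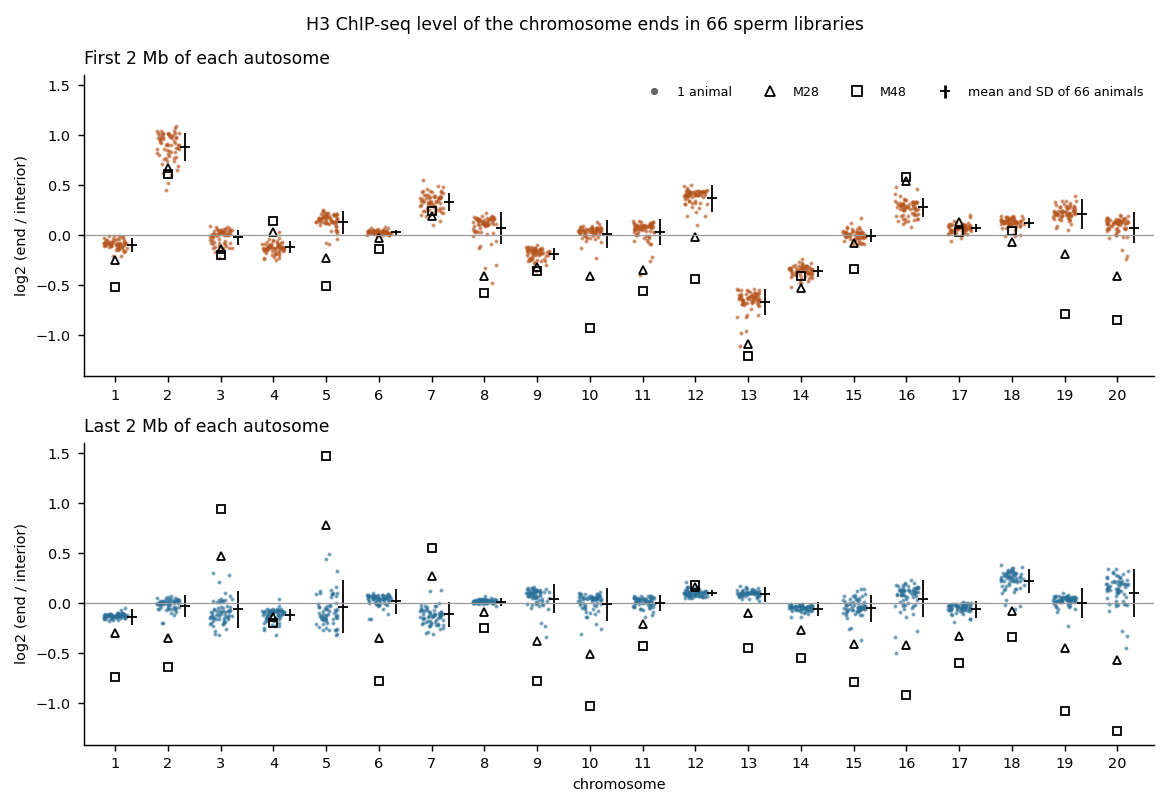
The log2 ratio of each end to the interior of its chromosome is plotted by chromosome, first ends in the upper panel and last ends in the lower panel. Each dot is 1 of 66 animals, open triangles and squares mark M28 and M48, and the bar gives the mean and SD. The first ends of chromosomes 2 and 13 lie farthest above and below 0, with means of 0.88 and -0.67, and M48 is apart from the other animals at most ends.

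The first end of chromosome 2 had the highest level. It averaged 0.720 ± 0.0799 RPM against 0.388 ± 0.0203 RPM in the interior of chromosome 2 (SD, n = 66). The animals ran from 0.415 RPM over a median of 0.740 to 0.836 RPM, while the highest interior value of any animal was 0.420 RPM. The log2 ratio was 0.88 ± 0.14 and above 0 in 66 of 66 animals. Its sign-flip permutation p was 1e-05, the smallest that the resamples can give, and 1.818e-05 after adjustment. The lowest ratio was 0.45 in M20 and the highest 1.09 in M61. M48 and M28 were inside this range with 0.61 and 0.67. The same smallest adjusted p was reached at each of the other 9 ends described next.

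The next highest levels were at the first ends of chromosomes 12, 7 and 16 and at the last end of chromosome 18. The first end of chromosome 12 averaged 0.443 ± 0.0300 RPM against 0.347 ± 0.0667 RPM in its interior, a log2 ratio of 0.37 ± 0.13, or 0.39 ± 0.07 without M28 and M48. It was above 0 in 64 animals, and the exceptions were M48 at -0.44 and M28 at -0.02. The interior of chromosome 12 itself reached 0.781 RPM in its highest animal. Chromosome 7 had a log2 ratio of 0.33 ± 0.09 at its first end, above 0 in 66 animals. Taken as the median over windows its value was -0.06, since the level came from a part of its windows. With the windows above 5 times the median kept, the ratio of the same end was 1.01. That of chromosome 16 had a ratio of 0.28 ± 0.09, above 0 in 66 animals, and the last end of chromosome 18 one of 0.22 ± 0.12, above 0 in 61. These ratios too depended on the windows used. As medians over windows they were 0.14 on chromosome 12, 0.08 on chromosome 16 and 0.14 on chromosome 18, and with the windows above 5 times the median kept that of chromosome 12 was 0.78. The first end of chromosome 19, at 0.21 ± 0.15 without those windows, was at 0.58 with them. This was above the first end of chromosome 16 at 0.33 and the last end of chromosome 18 at 0.24.

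The lowest level was at the first end of chromosome 13, with 0.235 ± 0.0225 RPM against 0.372 ± 0.00661 RPM in the interior. Its highest animal had 0.260 RPM and the lowest interior value of any animal was 0.333 RPM, so the end and the interior did not overlap. The log2 ratio was -0.67 ± 0.13 and was below 0 in 66 of 66 animals, from -1.21 in M48 to -0.54 in M61. Chromosome 14 followed at its first end with -0.36 ± 0.05, and the first end of chromosome 9 with -0.19 ± 0.06, both below 0 in 66 animals. The last end of chromosome 1 was at -0.14 ± 0.08 (SD of 0.02 without M28 and M48) and below 0 in 66 animals, and the first end of chromosome 4 was at -0.12 ± 0.06 and below 0 in 63. Both first and last ends of chromosome 1 were below its interior, the first at -0.10 ± 0.07, although at 1 Mb it was at 0.05. With the windows above 5 times the median kept, the first end of chromosome 9 was at -0.08 and the last end of chromosome 1 at -0.22.

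The last end of chromosome 17 gave opposite directions by the windows used. It was below the interior at -0.06 ± 0.09 with the windows above 5 times the median left out and at 0.70 with them kept, which include the run described above. At 1 Mb in place of 2 Mb, the first end of chromosome 2 had a ratio of 1.13, that of chromosome 13 one of -1.12, and that of chromosome 7 one of 0.68. Ratios at 1 Mb were also larger at the first ends of chromosomes 12 (0.64), 16 (0.54) and 9 (-0.46) and at the last end of chromosome 18 (0.39).

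These levels were not even along the 2 Mb. In steps of 100 kb the high level of the first end of chromosome 2 reached from its start to 1400 kb and then stopped. The 14 steps up to there had log2 ratios between 0.58 and 1.45, and the 6 steps from there to 2000 kb lay between 0.10 and 0.39. Joined, chr2:1-1400000 averaged 0.875 ± 0.112 RPM with a log2 ratio of 1.16 ± 0.17, and chr2:1400001-2000000 averaged 0.449 ± 0.0297 RPM with a ratio of 0.21 ± 0.06. Windows without any read changed at the same place, from 19.1% before it to 1.00% after it, and the part that these gaps have in the level was not tested. The places where an end was divided were chosen after the steps were seen, so the values of the parts are a description.

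The first end of chromosome 13 changed near this distance in the opposite direction. Its first 13 steps lay at -0.71 or below, the step at 1300 to 1400 kb at -0.42 and the 6 steps beyond at -0.33 or above. Divided at the same place as chromosome 2, its part up to 1400 kb was at a log2 ratio of -0.99 ± 0.13 with 0.188 ± 0.0178 RPM, and the part from 1400 to 2000 kb was at -0.15 ± 0.14 with 0.337 ± 0.0336 RPM. The lowest step, at 300 to 400 kb, had a ratio of -1.85. Here windows without a read fell only from 13.7% to 8.17%, so this low stretch still held reads in most of its windows.

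The high parts of 3 other ends were shorter. On chromosome 12 the first 500 kb had a log2 ratio of 1.27 ± 0.26, with 25.4% of windows without a read, and the next 1500 kb one of 0.05 ± 0.08. Chromosome 16 had 0.78 ± 0.11 over its first 700 kb and -0.03 ± 0.17 over the rest of the end. The outermost 500 kb of the last end of chromosome 18 were at 0.67 ± 0.22 and the rest of that end at 0.04 ± 0.17. Chromosome 7 was high at its first end between 300 and 1100 kb, with steps from 0.54 to 1.51, and again at 1600 to 1700 kb with 0.99, between steps as low as -0.97. At the first ends the median over chromosomes of the outermost 100 kb was 0.11, while single chromosomes ran from -1.63 to 1.79.

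**Figure D2:**
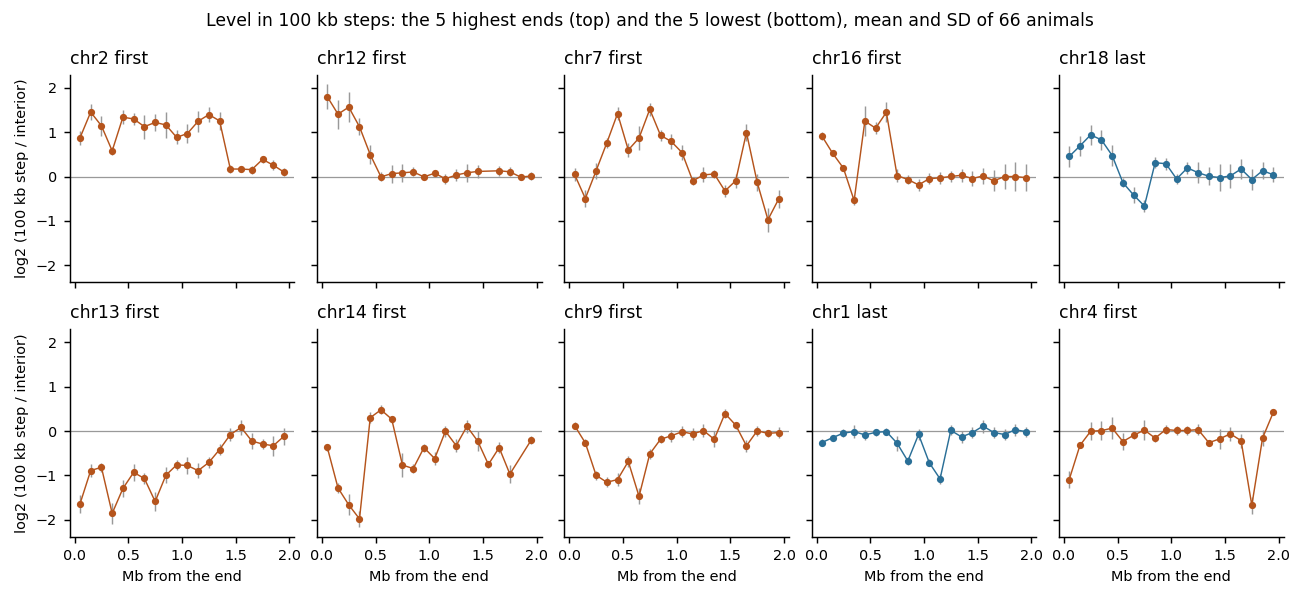
The level of 100 kb steps is plotted against the distance from the end in Mb for the 5 ends with the highest mean (top row) and the 5 with the lowest (bottom row), as mean and SD of 66 animals of the log2 ratio to the interior. On chromosome 2 the first 14 steps lie between 0.58 and 1.45 and the remaining 6 between 0.10 and 0.39, and on chromosome 13 the first 13 steps lie at -0.71 or below and the last 6 at -0.33 or above.

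The second question was whether the ends varied more between animals than the interior did. They did not do so as a class. The SD over 66 animals of the log2 ratio had a median of 0.112 at the 40 ends and of 0.115 at 1261 interior blocks of 2 Mb, each taken over the same interior. Without M28 and M48 the medians were 0.0655 and 0.0695. The coefficient of variation of single windows beyond counting error had a median of 18.3% at the ends and 18.4% in the interior. Per animal, the mean absolute deviation from the median animal was 0.0614 at the ends and 0.0659 at the blocks, a difference of -0.0045 ± 0.0167 (SD, n = 66 animals, two-sided sign-flip permutation test, p = 0.0232). It was wider at the ends in 30 of the 66 animals. Without the animals with a contradicting DMSO tag the difference was -0.0064 (p = 0.00311, wider at the ends in 19 of 53 animals) and without M28 and M48 it was -0.0026 (p = 0.0809). Ends of 1 Mb set against the blocks of 2 Mb gave 0.0036 (p = 0.0624), but these lengths are unequal. Against blocks of 1 Mb, an alternative chosen after the values were seen, the difference was -0.0016 (p = 0.579, wider at the ends in 39 animals).

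Single ends differed widely in spread. The last end of chromosome 5 had the largest SD, 0.27, which was 0.16 without M28 and M48. It averaged 0.375 ± 0.111 RPM, with a median of 0.346 RPM, a lowest value of 0.309 RPM and a highest of 1.14 RPM in M48. M48 was at a log2 ratio of 1.47 there and M28 at 0.78, far above the median animal at -0.10. The last ends of chromosomes 20 and 3 followed with SDs of 0.24 and 0.19, or 0.15 and 0.12 without these animals. The order also rested on M28 and M48. Without them the first ends of chromosomes 2 (0.14) and 8 (0.13) and the last end of chromosome 16 (0.13) were wider than that of chromosome 3. On chromosome 20, M48 was lowest at -1.28, and on chromosome 3 it was highest at 0.94. The last end of chromosome 5 remained wider than 97.4% of all interior blocks without the pair of libraries, and that of chromosome 20 wider than 94.4%.

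By the log2 ratio, the steadiest ends were the first end of chromosome 6, with an SD of 0.03, and the last ends of chromosomes 12 and 8, with SDs of 0.03 and 0.04. On chromosome 6 this end averaged 0.387 ± 0.0109 RPM and was above its interior in 60 of 66 animals by a log2 ratio of only 0.03. Only 2.06% of the interior blocks were steadier than this end. In RPM the last end of chromosome 12 was not steady, at 0.373 ± 0.0781 RPM, from 0.324 over a median of 0.352 to 0.886 RPM in M48. The interior of chromosome 12 varied as well, at 0.347 ± 0.0667 RPM and up to 0.781 RPM in M48. The ratio to it thus changed little. The order rested on M28 and M48, and without them the last end of chromosome 8 (SD of 0.016), the first end of chromosome 6 (0.017) and the last end of chromosome 1 (0.022) were the steadiest, while the last end of chromosome 12 was at 0.031. M48 was the lowest animal at 26 of the 40 ends and the highest at 5.

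The deviations of the ends were shared within animals. Each animal's ratio at an end was set against the median animal at that end. An animal had a median of 2 ends that deviated by more than 0.1 on the log2 scale, 20 animals had none and 15 had at least 10. Over the 64 animals without M28 and M48, a single principal component held 70.5% of the variance over the 40 ends and the next one 20.9%. The last ends of chromosomes 5, 3 and 7 had the most negative weights on the first component (-0.37, -0.27 and -0.16), followed by the first end of chromosome 16 (-0.15). The last ends of chromosomes 20 and 16 and the first end of chromosome 8 had the most positive ones (0.34, 0.30 and 0.29), so both signs were found at first and at last ends. Lean male M42 at -1.70, M22 without disease at -1.40 and control lineage male M17 at -1.25 lay farthest out, so the extremes came from 3 groups. M42 deviated by more than 0.1 at 31 ends, M22 at 30 and M17 at 27. The component describes these libraries, and what sets it was not tested.

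**Figure D3:**
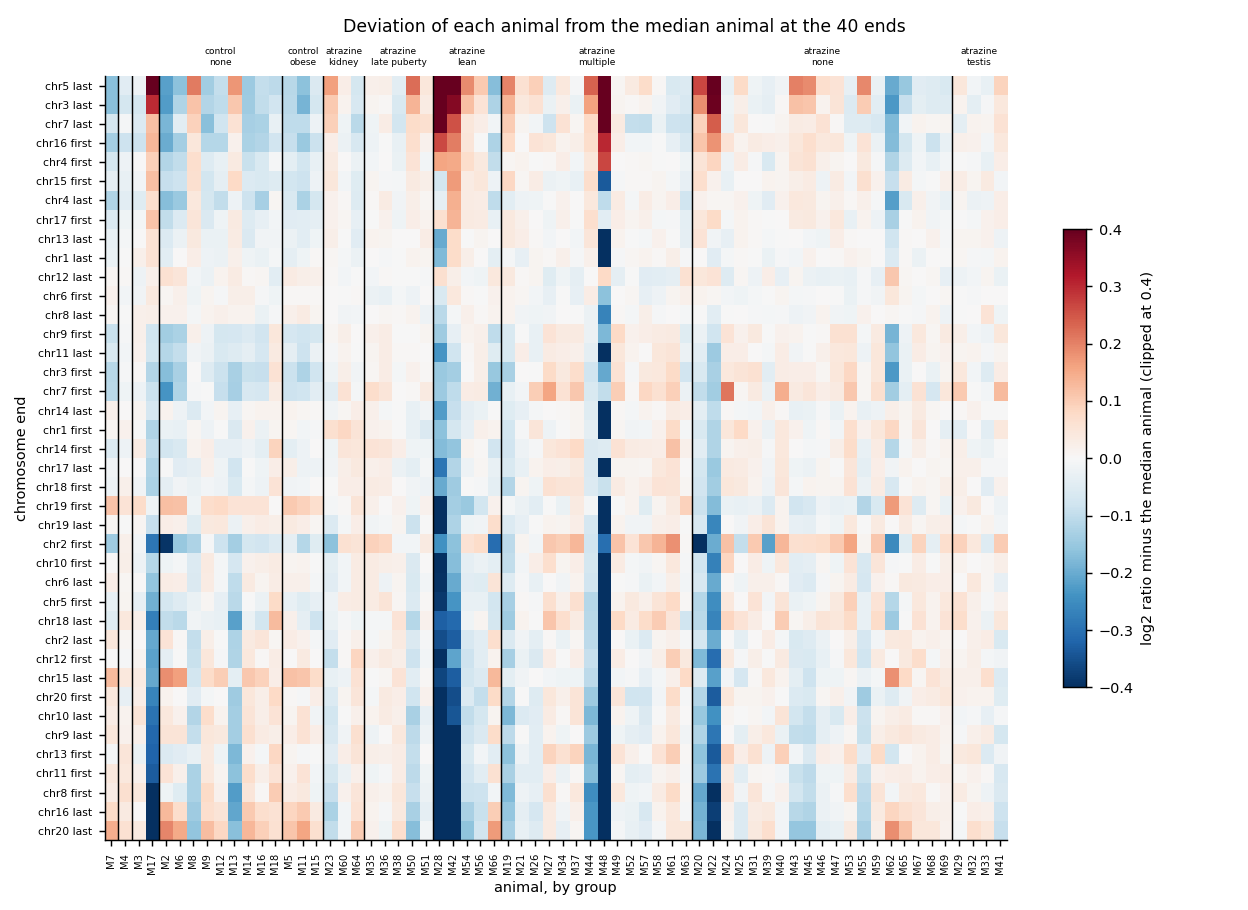
The heatmap gives, for each end (rows, ordered by weight on the first component) and each of 66 animals (columns, by group), the log2 ratio minus that of the median animal, with colours clipped at 0.4. Red and blue rows change places in the same columns, in M48, M28, M42, M22 and M17 above all, while 20 animals have no end beyond 0.1.

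On the second component the first ends of chromosomes 2, 7 and 3 had the largest positive weights (0.51, 0.34 and 0.29) and the last end of chromosome 15 the most negative one (-0.17). Control lineage animals averaged -0.21 ± 0.20 on it (SD, n = 16), from -0.69 over a median of -0.22 to 0.11. Atrazine lineage animals averaged 0.07 ± 0.20 (n = 48), from -0.67 over a median of 0.12 to 0.28. Thus 14 of 16 control lineage animals were below 0 and 35 of 48 atrazine lineage animals above it, with an overlap from -0.67 to 0.11. M2 of the control lineage was lowest at -0.69, and M62 and M66 of the atrazine lineage, both with the contradicting DMSO tag, followed at -0.67 and -0.48. The component was found in the same values, so this is a description without a test.

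The third question was whether the level of the ends as a whole differed between groups. The mean log2 ratio over the 40 ends was 0.029 ± 0.068 in the atrazine lineage (SD, n = 50) and 0.024 ± 0.027 in the control lineage (n = 16). The difference of 0.0047 had an adjusted p of 0.821 (two-sided permutation test with 100000 resamples, Benjamini-Hochberg adjusted over 18 tests, 6 comparisons of 3 measures), and without M28 and M48 it was 0.016 with an adjusted p of 0.449 by the same test. Lean animals were lowest, at -0.028 ± 0.084 (n = 5), against 0.037 ± 0.036 in the 17 animals without disease. The difference of -0.065 ± 0.039 (SE) had an exact permutation p of 0.0180 and an adjusted p of 0.133, and it was -0.034 without M28, with an adjusted p of 0.749 by the same test. None of the 5 lean animals was above the median animal without disease. The other 4 disease comparisons differed by between -0.019 and 0.014, each with an adjusted p of 0.821 (permutation tests). Of these, the multiple disease difference of -0.019 turned to 0.0090 without M48, and the kidney difference of 0.0089 turned to -0.0073 without the animals with a DMSO tag. Over all 66 animals the end level had a Pearson r of -0.81 with the share of reads in the 5% highest windows (permutation p = 0.00019, adjusted p = 0.00038). Spearman's rho was 0.17 (permutation p = 0.165, adjusted p = 0.331). With M28 and M48 left out, r was 0.08 (permutation p = 0.541, adjusted p = 0.541) and Spearman's rho 0.29 (permutation p = 0.0219, adjusted p = 0.0438), so the negative relation rested on those animals and the ranks of the other 64 had the opposite sign. With log10 of the total count, r was 0.23 (permutation p = 0.0714, adjusted p = 0.0714) and Spearman's rho -0.01 (permutation p = 0.938, adjusted p = 0.938). Without M3 and M68, the farthest in total count, r was 0.26 (permutation p = 0.0440, adjusted p = 0.0879) and Spearman's rho -0.02 (permutation p = 0.903, adjusted p = 0.903).

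**Figure D4:**
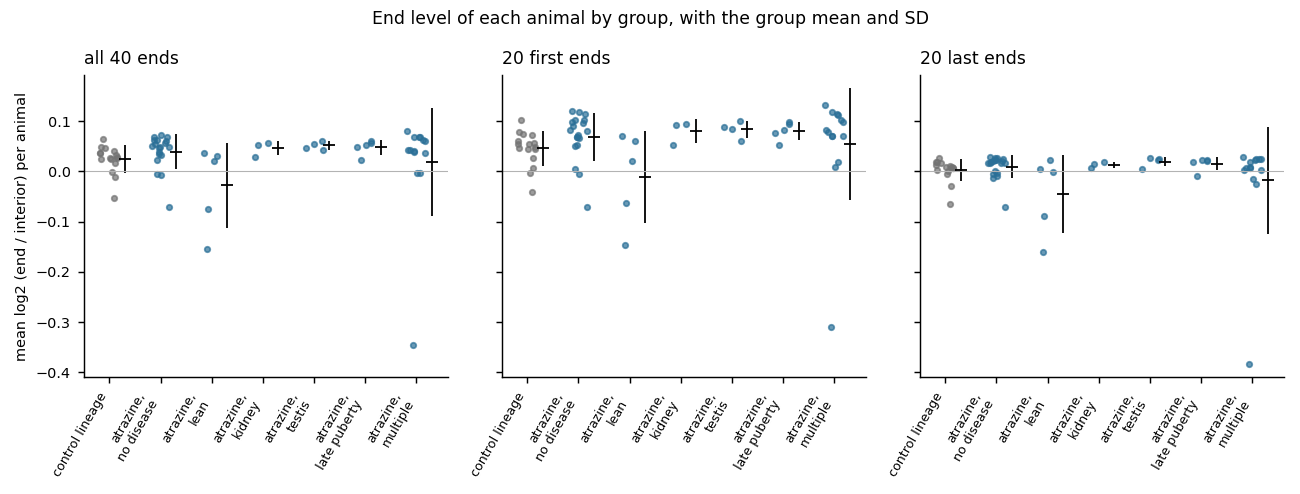
The mean log2 ratio of each animal over all 40 ends, the 20 first ends and the 20 last ends is plotted by group, with the group mean and SD. The control lineage has a mean of 0.024 over all ends and the lean group one of -0.028, and M48 lies far below its multiple disease group at -0.35 over all ends.

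The fourth question was which single ends differed between the lineages. Reads were summed over the kept windows of each end and of each interior block, 1301 regions of up to 2 Mb in all, and compared by the quasi-likelihood test of edgeR with TMM normalization, Benjamini-Hochberg adjusted over all regions. Between atrazine and control lineage, 10 of 40 ends had an adjusted p below 0.05, beside 19.2% of all regions. Of these, 9 were higher in the atrazine lineage, beside 8.15% of all regions that were called and higher, and 1 was lower, beside 11.1%. Over all 40 ends the changes ran from -0.09 to 0.20 on the log2 scale with a median of 0.02, and over all regions from -0.14 to 0.32 with a median of -0.003. An unadjusted p below 0.05 was found at 40% of the ends and at 45.6% of all regions, so the ends were not richer in differences by this measure.

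The end with the smallest p was the first end of chromosome 10. It averaged 0.368 ± 0.0141 RPM in the atrazine lineage (SD, n = 50), from 0.303 over a median of 0.370 to 0.398 RPM. The control lineage averaged 0.356 ± 0.0135 RPM (n = 16), from 0.334 over a median of 0.353 to 0.389 RPM. The groups overlapped over most of their range. The log2 fold change was 0.06 ± 0.01 (SE), with an edgeR adjusted p of 0.00234.

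The first ends of chromosomes 7, 12 and 16, which were among the highest ends, were also among those called higher in the atrazine lineage. On chromosome 7 the end averaged 0.480 ± 0.0248 RPM in the atrazine and 0.451 ± 0.0192 RPM in the control lineage, a log2 fold change of 0.11 ± 0.03 (SE) with an edgeR adjusted p of 0.00313. The changes were 0.11 ± 0.04 for chromosome 12 (0.450 against 0.420 RPM) and 0.10 ± 0.03 for chromosome 16 (0.464 against 0.436 RPM). The remaining 5 higher ends, the first ends of chromosomes 1, 3 and 9 and the last ends of chromosomes 4 and 10, changed by 0.03 to 0.07. The lower one was the first end of chromosome 19, with 0.432 ± 0.0224 RPM in the atrazine and 0.450 ± 0.0122 RPM in the control lineage, a log2 fold change of -0.05 ± 0.01 (SE) and an edgeR adjusted p of 0.0107. The first end of chromosome 2, the highest of all, had a log2 fold change of 0.07 ± 0.04 with an adjusted p of 0.183 by the same test. The last end of chromosome 18, also among the highest, was at 0.02 ± 0.03 with an adjusted p of 0.587 by this test. The last end of chromosome 5, the most variable, had the largest fitted change, 0.20 ± 0.11, with an adjusted p of 0.122. It was 0.10 without M28 and M48, with an adjusted p of 0.0777 by the same test, and the first end of chromosome 7, at 0.11, then had the largest.

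The number of ends called depended on the animals, and so did the share of all 1301 regions. When M28 and M48 were left out, 20 ends (50%) had an adjusted p below 0.05, beside 37.9% of all regions. Of these, 18 were higher, beside 24% of all regions that were called and higher. Without the animals that carry the contradicting DMSO tag, 24 ends (60%) had one, the same share as among all regions (60%). Here 16 were higher and 8 lower, beside 25.1% of all regions called and higher and 34.9% called and lower. With only animals without disease, 19 against 9, no end and no other region had one by edgeR's quasi-likelihood test, and 16 ends (40%) had an unadjusted p below 0.05, beside 25.8% of all regions. With the windows above 5 times the median kept, 11 ends were called, beside 14.7% of all regions, and all were higher, so the call of the first end of chromosome 19 as lower rested on leaving them out. DESeq2 called 13 ends, 12 of them higher, beside 21.4% of all regions.

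**Figure D5:**
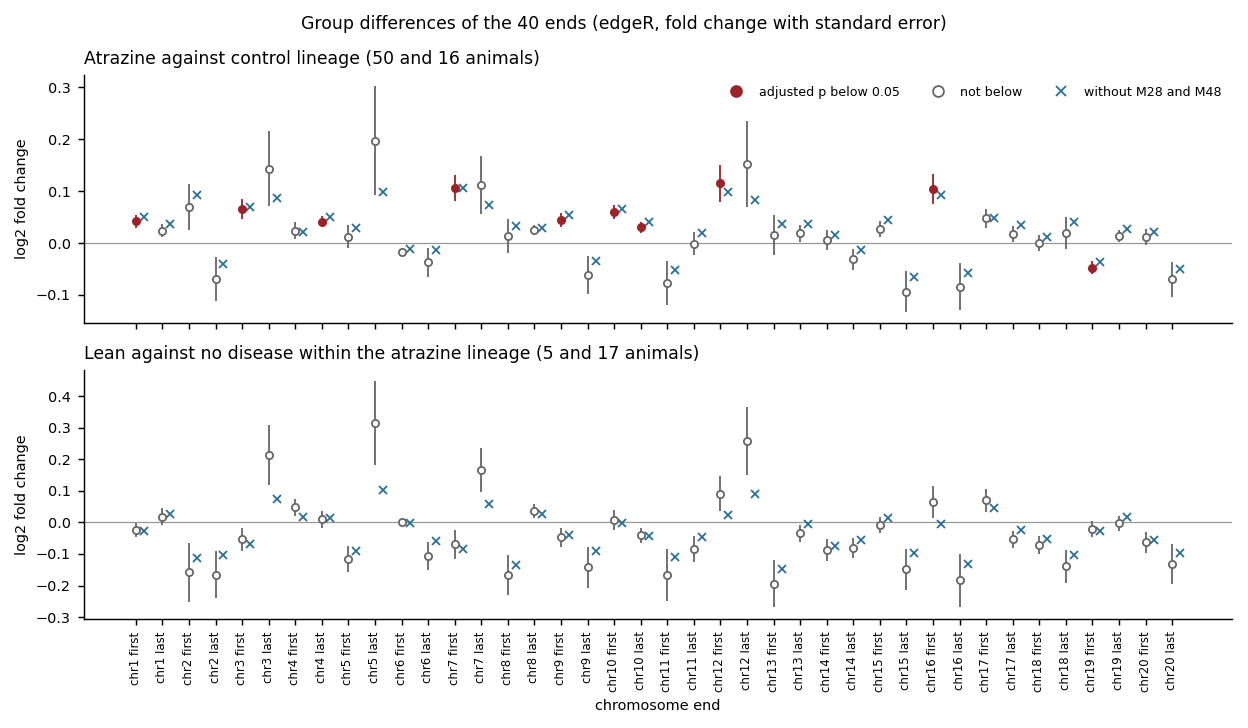
The log2 fold change of each of the 40 ends with its standard error is plotted for the atrazine against the control lineage (top) and for lean males against males without disease (bottom). Filled red points have an adjusted p below 0.05 and crosses give the change without M28 and M48. In the upper panel 10 ends are filled, 9 of them above 0, and in the lower panel none is filled and the changes run from -0.19 to 0.32.

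Within the atrazine lineage no end was called in any of the disease comparisons by edgeR's quasi-likelihood test or by DESeq2, with the 17 reference animals. For lean this depended on the animals used. Without those with a DMSO tag 23 ends (57.5%) were called by edgeR, beside 78.4% of all regions. With all 19 animals without disease as reference 16 ends (40%) were called, beside 57.5%. In the lean comparison 17 of the 40 ends (42.5%) had an unadjusted p below 0.05, beside 62.5% of all regions, and 0 of 1301 regions (0%) had an adjusted p below 0.05. The smallest p was at the first end of chromosome 5, with a log2 fold change of -0.12 ± 0.04 (SE) and an adjusted p of 0.0754. The changes ran from -0.19 at the first end of chromosome 13 to 0.32 at the last end of chromosome 5, and that of the latter was 0.10 without M28. Without M28, 1 end had an unadjusted p below 0.05, beside 0.615% of all regions, and without M42 no end had one, beside 2.08%. Without M54 no end and none of the 1301 regions (0%) had an adjusted p below 0.05, as with all 5 lean animals. Leaving out M66 or M56 had the opposite effect. Without M66, 25 ends (62.5%) had an adjusted p below 0.05, beside 81.5% of all regions, and without M56, 18 ends (45%) had one, beside 56.5%, so the ends held a smaller share of calls than the whole table. In the kidney, testis and multiple disease comparisons no end had an unadjusted p below 0.05, and in the late puberty comparison 1 had one, beside 0.154%, 0.231%, 0.231% and 0.307% of all regions in that order. Nor did any of the 1301 regions have an adjusted p below 0.05 in these 4 comparisons (0%). The end with the smallest p was the first end of chromosome 1 in the kidney comparison (0.06 ± 0.03) and the first end of chromosome 19 in the testis (0.04 ± 0.02), late puberty (0.05 ± 0.02) and multiple disease (0.03 ± 0.02) comparisons. These comparisons share their 17 reference animals.

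Single windows of 1000 bp were tested with the same tool over the whole table, and a window was kept if its mean over the animals compared was 10 reads or more. Between the lineages, 16 of 68524 end windows had p below 0.0001, 0.0234% beside 0.0133% of all windows tested. The 12 higher windows (0.0091% of all windows tested were called and higher) were all at first ends and the 4 lower windows all at last ends. Without the filter on low counts the balance turned, with 13 higher and 16 lower of 73908 end windows (0.0392% in all), beside 0.0101% of all windows called and higher and 0.00874% called and lower. No end window had an adjusted p below 0.05, the smallest being 0.313, beside 0.000121% of all windows. An unadjusted p below 0.05 was found in 5.93% of the end windows and 6.24% of all windows. Of the end windows with such a p, 1235 were higher and 836 lower at last ends. At first ends 1496 were higher and 497 lower. The split of the 16 windows by end was thus not seen at this threshold. Windows that were called lie partly next to each other and are not independent. DESeq2 gave 28 end windows with p below 0.0001 (0.0409%), no larger a share than the 0.0467% of 60000 windows sampled from the whole table. Without M28 and M48, an alternative chosen after the values were seen, edgeR gave 45 of 68522 (0.0657%), beside 0.027% of 200000 windows sampled from the whole table. Of these 45 windows, 26 lay at the first end of chromosome 16 and 6 at that of chromosome 20.

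Of the 16 windows, 9 lay in a stretch of 200 kb at the first end of chromosome 16, chr16:500001-700000, and were all higher in the atrazine lineage. This stretch belongs to the high part of that end, at 2.72 times the median window. Of its 173 windows tested, 158 had a positive log2 fold change and 90 had p below 0.05, all of them higher. Over all windows of the table that were tested, 6.24% had p below 0.05. Without M28 and M48, 25 windows of the stretch had p below 0.0001, beside 0.027% of 200000 windows sampled from the whole table. Over its windows with reads the atrazine lineage averaged 1.07 ± 0.126 RPM (SD, n = 50), from 0.647 over a median of 1.06 to 1.38 RPM. The control lineage averaged 0.930 ± 0.0543 RPM (n = 16), from 0.832 over a median of 0.943 to 1.04 RPM. Thus 30 of 50 atrazine lineage animals were above all 16 control lineage animals, and M48, at 0.647 RPM, was below all of them. The stretch was chosen for these windows, which lie near each other and are not independent. Its counts and its level are therefore a description without a test.

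The excess in this stretch was seen in animals of several groups. Among animals without disease, the atrazine lineage averaged 1.11 ± 0.121 RPM (n = 19) and the control lineage 0.929 ± 0.0654 RPM (n = 9). The 13 atrazine lineage animals with a DMSO tag averaged 1.03 ± 0.0702 RPM, between the means of both lineages, and the other 37 averaged 1.09 ± 0.138 RPM. Within the atrazine lineage, all 4 testis disease animals were above every control lineage animal, at 1.16 ± 0.0449 RPM. None of the 5 lean animals (0.962 ± 0.0433 RPM) and none of the 3 kidney disease animals (0.997 ± 0.0269 RPM) was, and 4 of 5 late puberty and 9 of 14 multiple disease animals were. The rest of the first end of chromosome 16 was closer between the lineages, at 0.438 ± 0.0254 and 0.422 ± 0.0231 RPM. Even so, 48 of 50 atrazine lineage animals were above the control median in this rest, against 45 in the stretch. Only 4 were above all control lineage animals there, against 30 in the stretch.

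The window with the smallest p lay in the stretch, chr16:659001-660000. It averaged 2.31 ± 0.431 RPM in the atrazine lineage, from 1.71 over a median of 2.23 to 3.45 RPM. The control lineage averaged 1.70 ± 0.343 RPM, from 1.19 over a median of 1.60 to 2.49 RPM. All 50 atrazine lineage animals were above the median of the control lineage, and 14 were above all control lineage animals. The log2 fold change was 0.45 ± 0.09 (SE), with an edgeR p of 1.6e-06 and an adjusted p of 0.313. The study's lists of regions pair the windows chr16:546001-547000 and chr16:569001-570000 of this stretch with the predicted genes AABR07024473.2 and AABR07024468.1. Another, shorter stretch, chr20:130001-160000, held 1 window with p below 0.0001 of 29 tested, beside 0.0133% of all windows tested. Without M28 and M48 it held 6, beside 0.027% of 200000 windows sampled from the whole table. This stretch too was chosen for its windows, so its counts and its level are a description without a test. It averaged 1.41 ± 0.243 RPM in the atrazine and 1.16 ± 0.194 RPM in the control lineage. Of the 50 atrazine lineage animals, 49 were above the control median, but only 15 were above all control lineage animals, which reached 1.55 RPM.

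The lower windows lay at last ends and in 2 cases in regions that the study's lists pair with a gene. The window with the smallest p among them was chr14:115244001-115245000, paired with Psme4, which encodes the proteasome activator PA200, known for its part in the breakdown of acetylated histones in spermatids. It averaged 0.343 ± 0.104 RPM in the atrazine lineage, from 0.0993 over a median of 0.345 to 0.558 RPM. The control lineage averaged 0.502 ± 0.132 RPM, from 0.308 over a median of 0.523 to 0.773 RPM. The groups overlapped, although 14 atrazine lineage animals were below all control lineage animals. The log2 fold change was -0.53 ± 0.12 (SE), with an edgeR p of 2.359e-05 and an adjusted p of 0.609. The window chr9:121916001-121917000, paired with Tyms, which encodes the thymidylate synthase of DNA precursor synthesis, averaged 0.386 ± 0.103 RPM in the atrazine and 0.538 ± 0.138 RPM in the control lineage (edgeR log2 fold change of -0.46 ± 0.11, SE, adjusted p = 0.633).

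In the lean comparison, 28 of 66727 end windows had p below 0.0001, 0.0420% beside 0.0402% of all windows tested, so the ends held about the share of the whole genome. There were 12 higher and 16 lower windows at 20 of the ends, and p below 0.05 was found in 11.3% of the end windows and 11.4% of all windows. The smallest adjusted p was 0.239. The count turned on single animals. It was 11 without M28, 13 without M42, 43 without M56, 79 without M54 and 105 without M66. These are 0.0165%, 0.0195%, 0.0644%, 0.118% and 0.157% of the end windows, beside 0.0145%, 0.0115%, 0.0465%, 0.0835% and 0.155% of 200000 windows sampled from the whole table in the same fits. DESeq2 gave 52 (0.0779%), beside 0.0833% of 60000 sampled windows.

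The lean window with the smallest p was chr16:131001-132000, paired with the predicted gene AABR07024442.1. The lean animals M28, M42, M54, M56 and M66 had 0.189, 0.288, 0.198, 0.182 and 0.266 RPM there. The 17 animals without disease averaged 0.558 ± 0.0761 RPM, with a lowest value of 0.446 RPM, so that all 5 lean animals were below all of them. The log2 fold change was -1.26 ± 0.24 (SE), with an edgeR p of 1.539e-06 and an adjusted p of 0.239. The lean values stand on 5 to 17 reads each, a small number with a large counting error. The higher window with the smallest p was chr1:175001-176000, at 2.38, 1.78, 1.39, 1.93 and 1.74 RPM in the same order. Of these, 4 were above the highest animal without disease at 1.43 RPM, and the log2 fold change was 0.70 ± 0.15 (SE, edgeR adjusted p = 0.239). Without M28 it was 0.57 with an edgeR p of 0.000464, no longer below 0.0001.

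Among the other lean windows with p below 0.0001, those paired with genes are given here because a gene is listed, after their values were seen. Wls encodes the carrier that Wnt proteins need for their secretion. Its window at the last end of chromosome 2, chr2:266324001-266325000, had 0, 0.153, 0.184, 0.182 and 0.237 RPM in M28, M42, M54, M56 and M66. All 5 were below the lowest of the 17 animals without disease, 0.313 RPM, and these averaged 0.468 ± 0.112 RPM. Gria4 encodes a subunit of AMPA glutamate receptors, and its window at the first end of chromosome 8, chr8:1982001-1983000, averaged 0.182 ± 0.103 RPM against 0.478 ± 0.134 RPM. Again all 5 lean animals were below all animals without disease. Rfc3, a subunit of the clamp loader of DNA replication, had a window at the first end of chromosome 12 with 0.163 ± 0.106 RPM against 0.433 ± 0.117 RPM. Rock1, a kinase of the actin cytoskeleton, had one at the first end of chromosome 18 with 0.121 ± 0.0981 RPM against 0.381 ± 0.118 RPM. A window of Lrrc7, a scaffold protein of the postsynapse, had 0.0625 ± 0.0563 RPM against 0.234 ± 0.0864 RPM at the last end of chromosome 2. At each of these last 3 windows, 4 of the 5 lean animals were below all animals without disease. Without M28 the p of these windows was between 0.0001327 and 0.0003962 by edgeR, above 0.0001. The lower windows were picked for their p, so the separation of the groups adds no further support. Their lean values stand on few reads in most lean animals, with a large counting error. M28 was at 0 RPM for Wls and Rock1, and M56 for Lrrc7. The filter on reads used the mean over all animals compared, so it set no lowest count for the lean animals. A higher window at the last end of chromosome 7, chr7:145381001-145382000, is paired with the predicted genes AABR07058955.1 and AABR07058955.2. It averaged 0.383 ± 0.0800 RPM in the lean animals against 0.156 ± 0.0644 RPM, and 4 of the 5 were above all animals without disease. The log2 fold change was 1.23 ± 0.29 (SE) with an edgeR p of 7.104e-05, and without M28 it was 1.12 with a p of 0.0005837.

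A single end window had p below 0.0001 in the lean comparison and the smallest p of the higher windows in the multiple disease comparison. The window chr13:113779001-113780000 at the last end of chromosome 13 is paired with Mir29b2, Mir3556b and Cd46. Cd46 encodes a complement regulator that in rodents is found mainly on the acrosome of sperm. The mature miRNAs of the first 2 genes in RefSeq (GRCr8) are printed because this is the only window of the ends described here that is paired with miRNA genes. Capitals mark the seed, bases 2 to 8, which differs between all 3 sequences.
rno-miR-29b-3p: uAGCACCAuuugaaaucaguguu
rno-miR-29b-5p: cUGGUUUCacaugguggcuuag
rno-miR-3556b: aCCGAUUUcaaauggugcua

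The lean animals M28, M42, M54, M56 and M66 had 0.868, 0.559, 0.311, 0.547 and 0.443 RPM in this window. The 17 animals without disease averaged 0.237 ± 0.0679 RPM, from 0.133 over a median of 0.225 to 0.432 RPM, and 4 of the 5 lean animals were above all of them. Between these groups the log2 fold change was 1.16 ± 0.25 (SE), with an edgeR p of 1.685e-05 and an adjusted p of 0.239. Without M28, the highest of the 5, it was 0.94 with a p of 0.0008274 by the same tool. The 14 multiple disease animals averaged 0.395 ± 0.138 RPM, from 0.190 over a median of 0.370 to 0.744 RPM, and 5 of them were above all animals without disease. Their log2 fold change was 0.73 ± 0.18 (SE), with an edgeR p of 0.0002494 and an adjusted p of 1. Without M48 it was 0.63 with a p of 0.0006593 by the same tool. Both comparisons use the same 17 reference animals, and most of the multiple disease males are labelled lean among their diseases. The comparisons are thus not independent of each other.

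The other disease comparisons gave few windows at the ends with p below 0.0001. For testis, late puberty and multiple disease, the first end of chromosome 19 held the largest share with edgeR p below 0.05. These shares were 9.0%, 9.07% and 6.5%, beside 3.65%, 3.49% and 3.3% of all windows. Of these windows, 129 of 164, 129 of 165 and 89 of 118 were higher. The end was picked after the values were seen and the comparisons share reference animals, so this is a description. In the kidney comparison 0 of 68103 end windows had p below 0.0001 by edgeR, beside 0.00235% of all windows, and 1948 had p below 0.05 (2.86%, beside 2.77%). DESeq2 gave 0 too, and leaving out M60 or M64 gave 5 (0.00734%, beside 0.005% of 200000 sampled windows) or 2 (0.00294%, beside 0.001%). The kidney windows with the smallest p were chr14:650001-651000, with 0.673, 0.817 and 1.30 RPM in M23, M60 and M64 against 0.478 ± 0.138 RPM, and chr16:200001-201000, with 0.115, 0.251 and 0.176 RPM against 0.414 ± 0.0877 RPM. The edgeR adjusted p was 1 for both windows.

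In the testis comparison 1 of 67973 end windows had p below 0.0001, beside 0.00533% of all windows, or 2 without M33 (0.00294%, beside 0.0045% of the sampled windows) and 3 without M41 (0.00441%, beside 0.0055%). With all animals, 3.66% of the end windows had p below 0.05, beside 3.65%. The window called was chr19:277001-278000, with 1.32, 1.47, 1.29 and 0.964 RPM in M29, M32, M33 and M41 against 0.738 ± 0.238 RPM in the 17 animals without disease. It had a log2 fold change of 0.76 ± 0.18 (SE, edgeR adjusted p = 1). The lower window with the smallest p, chr12:51341001-51342000, averaged 0.190 ± 0.0349 RPM against 0.407 ± 0.156 RPM.

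In the late puberty comparison 2 of 67817 end windows had p below 0.0001, beside 0.00355% of all windows, and 3.76% had p below 0.05, beside 3.49%. The count was 1 without M35 (0.00147%) and 4 without M38 or without M50 (0.0059% each), beside 0.004% of the sampled windows in each of these fits. The smallest p was at chr4:1920001-1921000, with 0.203, 0.259, 0.255, 0.174 and 0.305 RPM in M35, M36, M38, M50 and M51. The 17 animals without disease averaged 0.482 ± 0.0974 RPM, with a lowest value of 0.296 RPM, and 4 of the 5 animals were below all of them. Here the log2 fold change was -0.99 ± 0.22 (SE), with an edgeR adjusted p of 1. The higher window with the smallest p, chr4:183140001-183141000, averaged 0.555 ± 0.131 RPM against 0.302 ± 0.0789 RPM.

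In the multiple disease comparison 0 of 67031 end windows had p below 0.0001 by edgeR, beside 0.00137% of all windows, and 2213 had p below 0.05 (3.30%, beside 3.3% of all windows). DESeq2 gave 3 (0.00448%, beside 0.00833% of 60000 sampled windows), and edgeR without M48 gave 5 (0.00746%, beside 0.005% of 200000 sampled windows). The lower window with the smallest p was chr15:110925001-110926000, with 0.253 ± 0.101 RPM against 0.434 ± 0.108 RPM, and 5 of 14 animals below all animals without disease (edgeR log2 fold change of -0.70 ± 0.17, SE, adjusted p = 1).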

How the data were processed

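The deposited values are raw read counts of histone ChIP-Seq in windows of 1000 bp, given by the authors for the sperm of each of 66 rats. Per the labels and the study's methods, the authors cleaned reads with Trimmomatic, mapped them to Rnor 6.0 with Bowtie2 and counted them with MEDIPS. Read extension and the treatment of duplicates are not given in the sources used here, and the methods describe pools of sperm although counts are given per animal. The 5 disease tables repeat counts of these animals. Columns of the authors' own comparisons, which hold their fold changes and p-values, and 298 further columns per animal were not used.

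Ends, lists and tests were chosen with earlier results of these data known. Windows without a read in any animal and windows above 5 times the median were left out of levels, spread and region sums. Steps of 100 kb needed at least 20 kept windows. Windows were tested after a filter of a mean of 10 reads, with TMM factors and a dispersion trend from 200000 sampled windows. Because windows were called at p below 0.0001, calls by chance occur. Tools were R 4.3.3, edgeR 4.0.16, DESeq2 1.42.0, Python 3.11.15, NumPy 2.4.6 and SciPy 1.17.1. The tests were checked on simulated data, with regions and windows drawn independently, so deviations shared within animals were not covered. A log2 change of 1 in simulated windows passed p below 0.0001 in 40% of cases for kidney, the lowest share, and in 99% for the lineages, the highest.

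Named are the 5 highest and 5 lowest ends, the 3 widest and 3 steadiest, and per comparison the end and the windows with the smallest p in each direction. Genes come from the study's lists of regions, since no annotation of this build was used here, and miRNA sequences come from RefSeq. Alternatives were DESeq2, its size factors, other filters, ends of 1 Mb, medians, other reference animals, and each animal left out of the disease groups of at most 5. Animals are separate rats. The methods state that several libraries shared a sequencing lane, but the lane or batch of each animal is not given.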

Additional observations from a re-analysis of the deposited data

Results flagged for a closer look

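In 4 of 92 groups tested over 23 values, 1 animal lay far from the rest of its group, by Dixon's test at the 95% level, where chance gives about 1 in 20 groups. Late puberty male M50 had a mean log2 ratio over the 20 last ends of -0.0084, and the other 4 were between 0.018 and 0.023. The same male was at -0.73 at the first end of chromosome 13, where the others were between -0.64 and -0.61. Control lineage male M2 without disease was at 0.52 at the first end of chromosome 2, and the other 8 were between 0.76 and 0.90. Lean male M28 was at -0.087 at the last end of chromosome 8, and the other lean males were between 0.013 and 0.040.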

How the results depend on the processing

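No paired analysis was possible because every animal is in 1 group only. The number of ends above their interior ranged from 12 to 23 over 6 alternatives. The difference in spread between ends and interior was -0.0012 with windows above 5 times the median kept, with or without windows that had no read, -0.0027 for medians and -0.0026 without M28 and M48, all short of the threshold. It was -0.0064 and past the threshold without the animals with a DMSO tag, 0.0036 for ends of 1 Mb against blocks of 2 Mb, which differ in length, and -0.0016 with both at 1 Mb, short of the threshold. The end level reversed without the animals with a DMSO tag for the lineages (-0.0020) and kidney (-0.0073) and without M28 and M48 for multiple disease (0.0090), none of them past the threshold in any form. Ends called between the lineages numbered 20 without M28 and M48, 24 without the tagged animals and 0 with animals without disease only. Lean ends called numbered 23 without the tagged animals and 16 with all 19 animals without disease (78.4% and 57.5% of all regions), and 0 to 25 with 1 animal left out. End windows with p below 0.0001 by DESeq2 numbered 28 for the lineages, 52 for lean, 5 for testis (0.00736%, beside 0.01% of 60000 sampled windows), 4 for late puberty (0.0059%, beside 0.00667%) and 3 for multiple disease. Without a filter they were 29 for the lineages, 13 higher and 16 lower, and 1 for kidney (0.00136%, beside 0.0035% of all windows), and with a mean of 20 reads 17 for lean (0.0429%, beside 0.0365%) and 1 for late puberty (0.00196%, beside 0.00348%). Without M28 and M48, an alternative chosen after the data were seen, they were 45 for the lineages, 11 for lean and 5 for multiple disease. With 1 animal left out they ranged from 11 to 105 for lean, 0 to 5 for kidney, 1 to 3 for testis and 1 to 4 for late puberty. The causes were not tested. Windows near 10 reads have a large counting error, which covers single windows more than sums over 2 Mb.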
